A study of Mus musculus with 9 samples.

Results

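The dystrophin-glycoprotein complex was followed here through 9 of its genes in whole newborn mouse lens: *Sspn* (sarcospan), *Dag1* (dystroglycan), *Dmd* (dystrophin), *Utrn* (utrophin), *Sgcb*, *Sgcd* and *Sgce* (the β-, δ- and ε-sarcoglycans), *Sntb1* (β1-syntrophin) and *Dtna* (α-dystrobrevin). They are 9 of the 47729 genes listed in the RNA-Seq tables, and all 9 passed the filter on low counts that left 15557 genes for testing. *Sspn* was chosen by its measured difference between *Le-Cre* and *P0-3.9GFPCre* lenses, where it had the smallest p of all tested genes, so that difference is given as a description with no test. The other 8 genes entered as further components of the complex, chosen with earlier results of these data known.

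The samples were lenses of newborn *FVB/N* mice without a transgene, of hemizygous *P0-3.9GFPCre* mice and of hemizygous *Le-Cre* mice. All were on the *FVB/N* background, for which the paper names the *rd1* mutation in homozygous form, with photoreceptor degeneration. No further allele and no treatment was named. Both transgenes express CRE together with GFP under a *Pax6* P0 promoter fragment, which is active in the surface ectoderm that gives rise to the lens. Each line was represented by 3 pools of 6 lenses from 3 mice, and the question was whether the CRE transgenes alone are accompanied by altered expression. Because a pool is a whole lens, fewer cells of a type and less RNA per cell cannot be told apart.

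In muscle and in many epithelia, dystroglycan spans the plasma membrane and binds laminins and related matrix proteins through sugar chains on its extracellular part. Inside the cell it binds dystrophin or the related protein utrophin, which hold the actin cytoskeleton and recruit syntrophins and dystrobrevins. Sarcoglycans form a subcomplex beside dystroglycan, and sarcospan, a small protein with 4 membrane-spanning segments, binds to that subcomplex. The lens is enclosed by a capsule, a thick basement membrane rich in laminin and perlecan. Where the complex lies in lens cells was not examined here.

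Totals ranged from 20670968 to 28098059 expected counts per pool, which are RSEM's estimates of the reads from each gene, and crystallin genes took 39.1% to 43.0% of them. The lens markers summed to between 209500 and 258800 CPM (counts scaled to a common library size) in the 9 pools. Of the skeletal muscle markers, the tissue best known for this complex, 7 of 8 had a mean under 1 CPM, *Myl1* was at 0 in every pool, and *Actn3* had the highest level at a mean of 4.33 CPM. Muscle marker sums were 3.90 to 5.57 CPM in *FVB/N*, 4.40 to 4.89 in *P0-3.9GFPCre* and 3.47 to 5.34 in *Le-Cre*. The sums for vessel markers were 90.5 to 108.2, 60.9 to 104.6 and 85.2 to 104.6 CPM in the same order, and those for pericytes and mesenchyme were 30.3 to 37.5, 21.9 to 42.2 and 28.3 to 43.9 CPM. All 5 macrophage markers had a mean under 1 CPM, with sums of 1.31 to 4.31 CPM over the 9 pools. Blood marker sums ranged from 41.7 to 120.2 CPM, and pigment cell sums from 1.89 to 14.3 CPM. *Krt12* and *Krt14* of corneal and surface epithelium were at 0 in every pool. The part of these other cell types in the values that follow was not tested. The pools differed in the sex of their mice, since 4 Y-linked genes summed to 126.1 to 193.6 CPM in *FVB/N*, 1.66 to 134.8 CPM in *P0-3.9GFPCre* and 0.633 to 71.9 CPM in *Le-Cre*.

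The starts of *Sspn*, *Dmd* and *Dag1* are shown because these genes have several annotated promoters or transcripts, and the length values described further on bear on which of them were in use. Each window is RefSeq's, on GRCm38.p6, and runs from 250 bases before to 50 after the start, in the direction of transcription. Capitals mark a GC box (GGGCGG or CCGCCC), the TATA sequence (TATAAA or TTTATA) or the CCAAT sequence (CCAAT or ATTGG), read on both strands.
Sspn, upstream start, chr6:145931623-145931922, plus strand: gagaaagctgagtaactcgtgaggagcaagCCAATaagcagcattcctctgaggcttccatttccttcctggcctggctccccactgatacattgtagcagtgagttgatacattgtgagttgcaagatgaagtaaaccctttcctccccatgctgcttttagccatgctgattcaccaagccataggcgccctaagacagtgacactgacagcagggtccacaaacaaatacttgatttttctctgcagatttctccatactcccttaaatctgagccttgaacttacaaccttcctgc
Sspn, start of transcript Sspn-001, chr6:145933872-145934171, plus strand: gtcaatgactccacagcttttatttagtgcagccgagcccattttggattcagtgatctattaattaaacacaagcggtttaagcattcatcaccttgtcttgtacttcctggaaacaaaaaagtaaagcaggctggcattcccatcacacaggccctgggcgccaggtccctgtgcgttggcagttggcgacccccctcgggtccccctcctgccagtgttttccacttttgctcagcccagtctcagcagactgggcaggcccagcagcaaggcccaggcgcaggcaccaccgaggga
Dmd, upstream start of the full-length transcript, chrX:82948620-82948919, plus strand: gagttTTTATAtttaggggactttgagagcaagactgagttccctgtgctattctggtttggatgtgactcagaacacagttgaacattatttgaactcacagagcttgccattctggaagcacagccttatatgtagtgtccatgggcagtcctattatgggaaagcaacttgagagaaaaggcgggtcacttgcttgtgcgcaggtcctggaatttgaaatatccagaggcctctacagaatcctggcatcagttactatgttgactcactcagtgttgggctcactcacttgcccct
Dmd, internal start, chrX:85048045-85048344, plus strand: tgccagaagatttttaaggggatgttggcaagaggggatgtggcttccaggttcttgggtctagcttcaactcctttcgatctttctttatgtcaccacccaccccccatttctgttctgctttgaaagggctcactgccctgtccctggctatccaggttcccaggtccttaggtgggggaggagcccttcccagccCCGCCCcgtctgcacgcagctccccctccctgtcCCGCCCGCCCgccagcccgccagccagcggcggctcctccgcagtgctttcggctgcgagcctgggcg
Dag1, start of transcript Dag1-001, chr9:108263909-108264208, minus strand: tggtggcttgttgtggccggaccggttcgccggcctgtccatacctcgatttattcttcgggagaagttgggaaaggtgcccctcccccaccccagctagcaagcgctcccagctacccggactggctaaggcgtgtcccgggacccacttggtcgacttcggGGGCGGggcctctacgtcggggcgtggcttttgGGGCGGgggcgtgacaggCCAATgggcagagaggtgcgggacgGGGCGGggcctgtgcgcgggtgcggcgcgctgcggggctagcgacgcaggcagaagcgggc

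The *Sspn*-001 window held none of the marked sequences and had a GC content of 54.7%, close to the median of 52.7% over 32851 RefSeq promoters. The upstream *Sspn* window had a GC content of 47.0% and 1 CCAAT. Its RefSeq start, at position 145931873, lies 232 bases after the annotated start of the nearest transcript, *Sspn*-002, at 145931641. Most of that window therefore lies downstream of the annotated start. The upstream *Dmd* window had a GC content of 45.7% and 1 TATA sequence, while the internal *Dmd* start had 62.7% and 3 GC boxes, some of whose letters overlap. The RefSeq start of the upstream *Dmd* window, at 82948870, is that of *Dmd*-014. The full-length transcript, *Dmd*-001, begins at 82948903, inside that window. The *Dag1* window was the richest of the 5 in GC, at 69.7%, with 3 GC boxes and 1 CCAAT. For comparison, 35.7% of all promoters in the table held a GC box, 13.6% the TATA sequence and 37.4% a CCAAT. These matches describe the letters in the windows and are not evidence of binding. The promoter table had entries for *Utrn*, *Sgcb* and *Sgcd* as well, but none for *Sgce* and *Sntb1*, and *Dtna* was not analysed there.

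On the per-length scale, levels of different genes can be compared as far as the estimated transcript lengths hold. On that scale *Dtna*, *Dag1*, *Sntb1* and *Dmd* stood above the sarcoglycans, sarcospan and *Utrn* in every pool. TPM (transcript abundance scaled for transcript length and library size) averaged 46.2 ± 5.85 (SD, n = 9 pools) for *Dtna*, a scaffold of the complex inside the cell, with a range of 36.9 to 55.3. *Dag1*, the matrix receptor itself, had 34.7 ± 2.50 TPM and a range of 30.4 to 37.0 that overlapped with that of *Dtna*. *Sntb1*, an adaptor that binds dystrophin, had 14.3 ± 1.10 TPM and *Dmd* 11.2 ± 1.35 TPM, again with overlapping ranges, and both lay below every *Dag1* value. *Sgcb* followed at 4.19 ± 0.417 TPM, *Utrn* at 3.34 ± 0.251 TPM and *Sspn* at 2.68 ± 0.597 TPM, each overlapping with the next. *Sgce* had 1.297 ± 0.361 TPM, and *Sgcd* had the lowest level, 0.348 ± 0.186 TPM, below every *Sgce* value. The mean level of *Dtna* was 132.8 times that of *Sgcd*. The order was the same within *FVB/N* and within *Le-Cre*, whereas in *P0-3.9GFPCre* *Sspn* stood above *Utrn*.

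**Figure D1:**
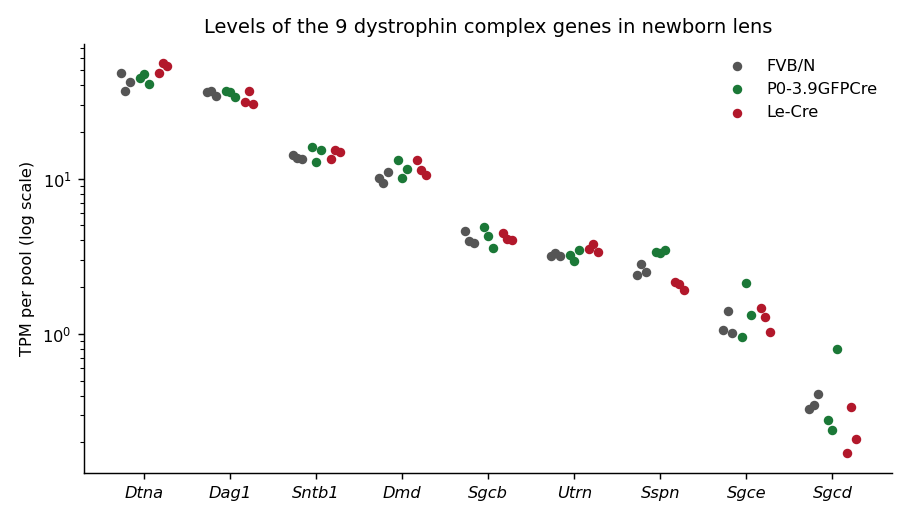
TPM of the 9 genes in each of the 9 pools, on a log axis, with genes ordered by their mean and points colored by line. *Dtna* and *Dag1* lie at 30.4 TPM or higher in all pools, and *Sgcd* lies at 0.80 TPM or lower.

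*Sspn* encodes sarcospan and lies at chr6:145931641-145965223 on the plus strand of GRCm38. Its expected counts were 263, 268 and 265 in the *FVB/N* pools, 318, 277 and 315 in the *P0-3.9GFPCre* pools and 251, 209 and 181 in the *Le-Cre* pools. After normalization for library size the values were 9.95, 11.5 and 10.9 CPM in *FVB/N*, 13.1, 13.4 and 14.1 CPM in *P0-3.9GFPCre*, and 8.93, 8.15 and 8.19 CPM in *Le-Cre*. Every *P0-3.9GFPCre* pool was above every *FVB/N* pool, and every *Le-Cre* pool was below every *FVB/N* pool. TPM gave the same separation, with 2.40, 2.83 and 2.51 in *FVB/N*, 3.37, 3.33 and 3.49 in *P0-3.9GFPCre*, and 2.17, 2.11 and 1.92 in *Le-Cre*. RSEM's 95% credibility intervals, which cover the counting and assignment of reads within a pool, reached down to 2.91 TPM in *P0-3.9GFPCre* and up to 2.42 TPM in *Le-Cre*. They ran from 2.10 to 3.15 TPM over the *FVB/N* pools and overlapped with those of both transgenic lines.

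The difference that chose *Sspn* was a 1.61-fold lower mean level in *Le-Cre* (8.42 ± 0.440 CPM, SD, n = 3) than in *P0-3.9GFPCre* (13.6 ± 0.542 CPM), the log2 fold change (log2FC) being -0.68 ± 0.098 (SE). The next genes in the same ranking were *Thbs1*, with a log2FC of -0.54, and *Ahcy*, with -1.42. The remaining comparisons of *Sspn* use the same transgenic pools and are therefore not independent of that choice. Relative to *FVB/N* (10.8 ± 0.793 CPM), *Sspn* was 1.26-fold higher in *P0-3.9GFPCre*, at a log2FC of 0.33 ± 0.097 and a 95% interval of 0.12 to 0.54. It was 1.28-fold lower in *Le-Cre*, at a log2FC of -0.35 ± 0.098 and an interval of -0.57 to -0.14. Neither passed the study's cutoff, which asks for a 1.5-fold change together with an adjusted p no higher than 0.05, the adjusted p of edgeR's quasi-likelihood test being 0.590 (unadjusted 0.00580) and 0.335 (unadjusted 0.00418). With the level of the Y-linked genes as a covariate, log2FC values were 0.30 in *P0-3.9GFPCre* and -0.41 in *Le-Cre* relative to *FVB/N*.

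**Figure D2:**
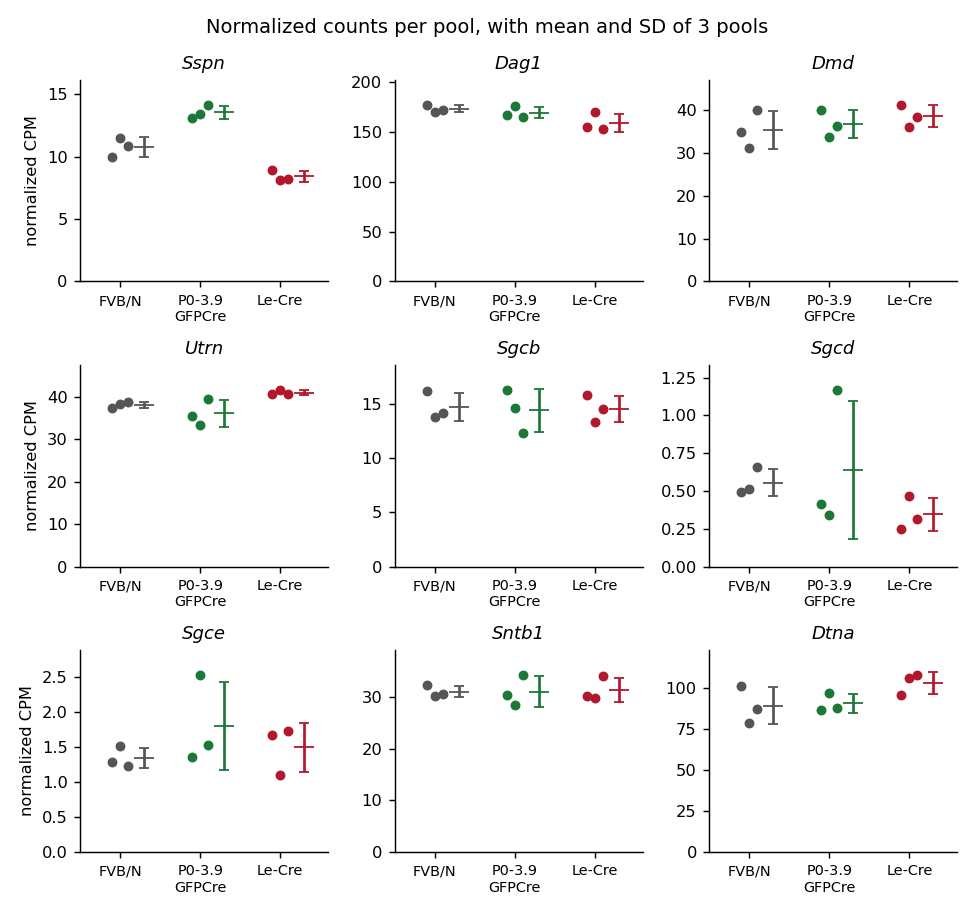
Normalized CPM of the 9 genes in each pool by line, with the mean and SD of 3 pools beside the points and each axis starting at 0. The 3 lines do not overlap for *Sspn*, at 9.95 to 11.5 CPM in *FVB/N*, 13.1 to 14.1 in *P0-3.9GFPCre* and 8.15 to 8.93 in *Le-Cre*, while the pools of the other genes overlap in at least 1 pair of lines.

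None of the other 8 genes changed past the cutoff in any comparison. The count of members called was 0 of 9 between *P0-3.9GFPCre* and *FVB/N*, where 0.0% of all tested genes were called, 0 of 9 between *Le-Cre* and *FVB/N*, where 0.0643% were called, and 0 of 8 between *Le-Cre* and *P0-3.9GFPCre* with *Sspn* left aside, where 0.0% were called. By DESeq2's Wald test the count was likewise 0 in each comparison. An unadjusted edgeR p under 0.05 was found for 1 member between *P0-3.9GFPCre* and *FVB/N* (*Sspn*), against 6.81% of all tested genes. It was found for 2 members between *Le-Cre* and *FVB/N* (*Sspn* and *Dtna*), against 7.94%, and for 1 of 8 between the transgenic lines (*Utrn*), against 7.88%. Pools that did not overlap were seen for 1 member in the first comparison (*Sspn*), for 4 in the second (*Sspn*, *Dag1*, *Utrn* and *Sgcd*) and for 1 of 8 in the last (*Utrn*), against 12.0%, 13.5% and 14.1% of all tested genes. *Sspn* was chosen on the same transgenic pools, so its entries in these counts are not independent of that choice. Apart from *Sspn*, no member had an unadjusted edgeR p under 0.05 between *P0-3.9GFPCre* and *FVB/N*, and only *Dtna* had one between *Le-Cre* and *FVB/N*. The median log2 fold change of the 9 genes, *Sspn* included throughout, was 0.02, 0.01 and 0.01, and that of all tested genes was within 0.004 of 0 in each comparison.

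*Dag1* gives rise to both subunits of dystroglycan and lies at chr9:108204634-108263958 on the minus strand. Its level was 177.4, 170.8 and 172.2 CPM in *FVB/N*, 167.3, 176.4 and 165.6 CPM in *P0-3.9GFPCre* and 155.4, 169.9 and 153.4 CPM in *Le-Cre*. The *Le-Cre* pools were all below the *FVB/N* pools, although *Le-Cre* replicate 2, at 169.9 CPM, lay close to the lowest of them at 170.8 CPM. Its log2FC from *FVB/N* to *Le-Cre* was -0.12 ± 0.059 (adjusted p = 0.684 by edgeR), and its interval of -0.25 to 0.01 lies inside a 1.5-fold change. With the Y-linked level as a covariate that value was -0.04, and by TPM the pools of these lines overlapped. *Dag1* was -0.03 in *P0-3.9GFPCre* relative to *FVB/N*, with an interval of -0.16 to 0.10.

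*Dmd* and *Utrn* encode the large proteins that link dystroglycan to actin. *Dmd* (chrX:82948870-85206141, plus strand) had 34.8, 31.1 and 39.8 CPM in *FVB/N*, 40.1, 33.6 and 36.2 CPM in *P0-3.9GFPCre* and 41.1, 36.0 and 38.3 CPM in *Le-Cre*. The lowest value belonged to *FVB/N* replicate 2, a pool with 0.472 CPM of *Xist*, the RNA made from the inactive X chromosome of females, against 463.0 CPM or more in all other pools. *Dmd* is X-linked, and the part of sex in its values was not tested beyond a fit with the Y-linked level as a covariate, in which its log2 fold change from *FVB/N* was 0.02 in *P0-3.9GFPCre* and 0.05 in *Le-Cre*. Without that covariate it was 0.05 with an interval of -0.17 to 0.28 in *P0-3.9GFPCre* and 0.13 with an interval of -0.10 to 0.35 in *Le-Cre*, and pools overlapped in every comparison.

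*Utrn* (chr10:12382188-12869365, minus strand) had 37.4, 38.2 and 38.7 CPM in *FVB/N*, 35.4, 33.2 and 39.5 CPM in *P0-3.9GFPCre* and 40.7, 41.5 and 40.7 CPM in *Le-Cre*. All *Le-Cre* pools were above all pools of the other lines by CPM, whereas by TPM *Le-Cre* replicate 3 (3.39) lay below *P0-3.9GFPCre* replicate 3 (3.46). Set against *P0-3.9GFPCre*, the *Le-Cre* pools gave a log2FC of 0.18 ± 0.073 with an interval of 0.02 to 0.35 (unadjusted p = 0.0273, adjusted p = 0.553 by edgeR). With the Y-linked covariate this log2FC was 0.15 (unadjusted p = 0.0703 by edgeR). It was 0.13 without *P0-3.9GFPCre* replicate 2 (unadjusted p = 0.119 by edgeR) and 0.26 without *P0-3.9GFPCre* replicate 3 (unadjusted p = 0.00479 by edgeR). Relative to *FVB/N* the log2FC was 0.10 in *Le-Cre*, with an interval of -0.05 to 0.26 (adjusted p = 0.785), and 0.03 with the Y-linked covariate. Per length, *Utrn* was lower than *Dmd* in every pool, at 2.93 to 3.82 TPM against 9.34 to 13.3 TPM. By CPM, which is not scaled for length, the means over all pools were 38.4 for *Utrn* and 36.8 for *Dmd*. The gap in TPM therefore rests on the lengths used, 12382 bases for *Utrn* and 3363 to 3787 bases for *Dmd*.

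The sarcoglycans, which bind sarcospan, did not pass the test in any comparison. *Sgcb* (chr5:73632749-73647790, minus strand) had 16.2, 13.9 and 14.1 CPM in *FVB/N*, 16.3, 14.7 and 12.3 CPM in *P0-3.9GFPCre* and 15.8, 13.4 and 14.6 CPM in *Le-Cre*. The log2FC values of *Sgcb* were -0.03, -0.02 and 0.01 for *P0-3.9GFPCre* and *Le-Cre* relative to *FVB/N* and for *Le-Cre* relative to *P0-3.9GFPCre*, and the widest interval ran from -0.29 to 0.23. *Sgcd* and *Sgce* were too low for a firm statement. *Sgcd* (chr11:46896253-47988969, minus strand) had 7 to 26 counts per pool, or 0.492, 0.516 and 0.655 CPM in *FVB/N*, 0.411, 0.339 and 1.17 CPM in *P0-3.9GFPCre* and 0.249, 0.468 and 0.317 CPM in *Le-Cre*. The pool with 1.17 CPM stood apart from the other 8, and the *Sgcd* log2FC in *P0-3.9GFPCre* relative to *FVB/N* was 0.21 with all pools and -0.55 without it. Its *Le-Cre* pools were all below its *FVB/N* pools, but the log2FC of -0.68 had an interval of -1.94 to 0.58, and by edgeR's test it was within the error (adjusted p = 0.832). *Sgce*, an imprinted gene at chr6:4674350-4747207 on the minus strand, had 28 to 52 counts per pool. Its level was 1.29, 1.505 and 1.23 CPM in *FVB/N*, 1.36, 2.52 and 1.53 CPM in *P0-3.9GFPCre* and 1.67, 1.09 and 1.72 CPM in *Le-Cre*. The intervals of its log2 fold changes spanned from -0.31 to 1.15 in *P0-3.9GFPCre* and from -0.57 to 0.89 in *Le-Cre* relative to *FVB/N*.

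The intracellular adaptors did not pass the test in any comparison. *Sntb1* (chr15:55636388-55906949, minus strand) had 32.2, 30.2 and 30.5 CPM in *FVB/N*, 30.4, 28.4 and 34.2 CPM in *P0-3.9GFPCre* and 30.1, 29.8 and 34.0 CPM in *Le-Cre*. The line means were 31.0, 31.0 and 31.3 CPM, and no interval of its log2 fold changes reached beyond -0.19 or 0.20, while with the Y-linked covariate the value in *Le-Cre* relative to *FVB/N* was -0.14. *Dtna* (chr18:23415135-23659715, plus strand) had 101.5, 79.0 and 87.3 CPM in *FVB/N*, 86.9, 97.3 and 88.0 CPM in *P0-3.9GFPCre* and 95.7, 106.1 and 108.0 CPM in *Le-Cre*. The *Le-Cre* mean was 1.16-fold above *FVB/N*, at a log2FC of 0.21 with an interval of 0.01 to 0.41 (unadjusted p = 0.0454, adjusted p = 0.617 by edgeR), but *FVB/N* replicate 1 lay within the *Le-Cre* range. That value was 0.13 without *FVB/N* replicate 2, the pool with the lowest *Dtna* level, and 0.32 without *FVB/N* replicate 1, the highest of its line (adjusted p = 0.356 by edgeR).

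**Figure D3:**
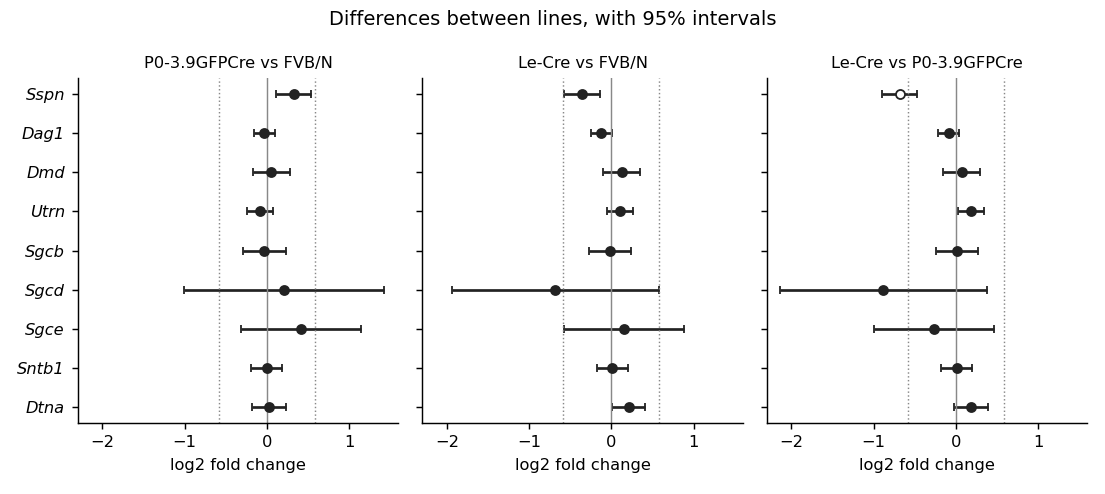
Log2 fold change of each gene with its 95% interval from edgeR in the 3 comparisons, with dotted lines at a 1.5-fold change in either direction and an open point for the difference that chose *Sspn*. Only *Sspn*, *Utrn* and *Dtna* have an interval that leaves out 0 in a comparison, and the intervals of *Sgcd* and *Sgce*, the members with the lowest counts, are the widest.

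The tables also give a length for each gene, which RSEM averages over its transcripts by their estimated shares, so it describes the mix of isoforms. For *Sspn* that length was exactly 4431.00 bases in 6 of 9 pools, equal to the annotated length of *Sspn*-001, and 4423.57, 4429.00 and 4430.98 bases in the other 3. *Sspn*-001 begins at position 145934122 of chromosome 6, the start inside the second *Sspn* window above. The other annotated transcripts of 4415 and 4512 bases begin upstream, at 145931641, and inside the gene, at 145953429. In *Le-Cre* the length was 4431 bases in all 3 pools. The transcripts of 4415 and 4431 bases differ little in length, so the 4423.57 bases of *FVB/N* replicate 3 would also arise from a mixture of both. These estimates rest on short reads, and transcripts that share most of their sequence are separated by few of them.

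For *Dmd*, the length was 3363 to 3787 bases, although the transcript of full-length dystrophin has 14910. For such a mean, at most 20.6% to 23.5% of the *Dmd* transcripts of a pool can have been full-length by RSEM's estimate. Like those for *Sspn*, this estimate rests on short reads. The protein-coding transcripts from the internal start, of 4438 and 1858 bases, encode short dystrophins that lack the actin-binding end, and they begin at position 85048413 of the X chromosome, shortly after the GC-rich *Dmd* window above. The 14 *Dmd* transcripts also include retained introns and processed transcripts, such as *Dmd*-014, a retained intron of 3690 bases from the upstream start. The mean length does not tell which of the shorter transcripts were present. The mean length was 3661 ± 23.9 bases in *FVB/N*, 3505 ± 116.2 in *P0-3.9GFPCre* and 3596 ± 215.3 in *Le-Cre* (SD, n = 3). The highest *P0-3.9GFPCre* pool and the lowest *FVB/N* pool were both at 3637 bases after rounding, and the *Le-Cre* range, 3363 to 3787 bases, spanned those of both other lines.

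*Dtna* has 2 transcripts in the tables, of 1596 and 6295 bases, so RSEM's estimated share of the longer follows from the mean. It was 14.4%, 16.1% and 11.9% in *FVB/N*, 14.2%, 14.8% and 16.8% in *P0-3.9GFPCre* and 12.2%, 13.5% and 11.6% in *Le-Cre*. The *P0-3.9GFPCre* pools were all above the *Le-Cre* pools, and the *FVB/N* pools overlapped with both. This difference was not tested, and no share of all genes that separate in this way is given. For *Dag1* the longest transcript is *Dag1*-001, of 5662 bases. By RSEM's estimates it made up at least 48.0% to 74.9% and at most 87.6% to 94.0% of a pool's *Dag1* transcripts. By the same estimates the longest *Sntb1* transcript made up at least 26.5% to 33.5% and at most 37.1% to 43.2%. *Utrn* has a single transcript of 12382 bases in the tables, and *Sgcb* was estimated at 3786 bases, the length of its only protein-coding transcript, in all 9 pools. None of the 51-base sequences of 8 members occurs in transcripts of other genes, and for *Sntb1* 0.152% do, so reads of these genes had few other places to go. Those overlapping genes of the annotation that the tables list, such as the antisense RNA *Sspnos*, had at most 2 counts in a pool, although the counting is not stated to use strand.

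**Figure D4:**
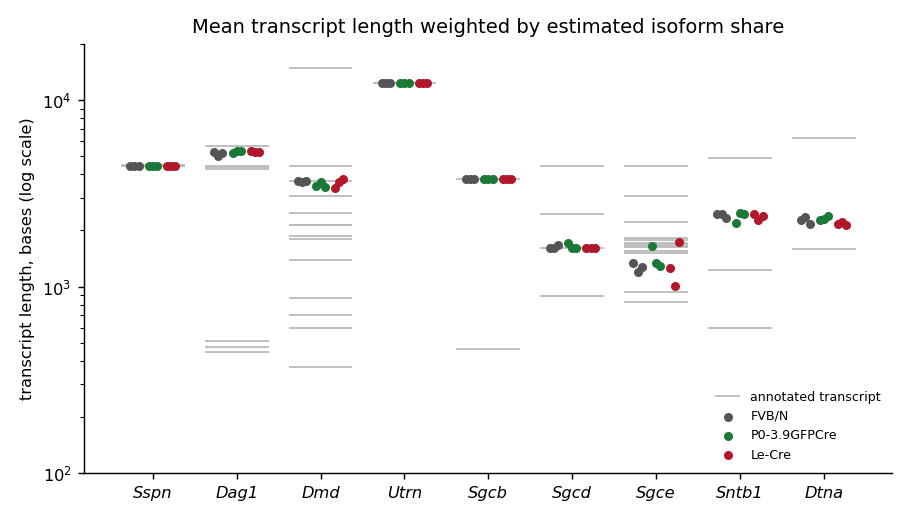
Mean transcript length of each gene per pool, weighted by RSEM's isoform shares, on a log axis, with gray lines at the lengths of its annotated transcripts. *Sspn* lies at 4424 to 4431 bases in all pools and *Dmd* at 3363 to 3787 bases, far below its 14910-base transcript.

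The same tests were read for the partners of the complex, from gene lists chosen with earlier results of these data known. In every list and comparison 0 genes were called, against 0.0%, 0.0643% and 0.0% of all tested genes, so the following values describe genes that did not pass the cutoff. Of 11 other genes of the complex, 6 were tested. *Dtnb* (β-dystrobrevin) had a level of 8.07 TPM and *Sntb2* (β2-syntrophin) one of 2.83 TPM. *Sgca*, the α-sarcoglycan gene of striated muscle, had 4 to 26 counts per pool and a log2FC of -1.59 ± 0.567 (SE) in *Le-Cre* relative to *P0-3.9GFPCre* (adjusted p = 0.531 by edgeR). The log2FC of *Dtnb* and *Sntb2* lay between -0.15 and 0.18 in all comparisons. *Sgcz*, *Sntg1*, *Sntg2* and *Cav3* had at most 4 counts in any pool and were not tested.

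All 18 enzymes that build the laminin-binding sugar of dystroglycan or its precursors passed the filter. Their median log2 fold changes were 0.05 in *P0-3.9GFPCre* and 0.01 in *Le-Cre* relative to *FVB/N*, and -0.04 between the transgenic lines. *Tmem5*, a xylosyltransferase of this pathway, had 9.11 ± 0.734 CPM in *FVB/N*, 9.74 ± 1.04 in *P0-3.9GFPCre* and 11.4 ± 0.574 in *Le-Cre*, with every *Le-Cre* pool above the other lines (log2 fold change from *FVB/N* 0.33, adjusted p = 0.491 by edgeR). *Dpm2*, which encodes a subunit of dolichol-phosphate mannose synthase, was at 0.27 (adjusted p = 0.613 by edgeR) in *Le-Cre* relative to *P0-3.9GFPCre*. *Pomgnt1* was detected at 23.0 TPM and *Large*, which extends the sugar chain, at 2.09 TPM.

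Among 11 matrix ligands of dystroglycan, 10 were tested. *Hspg2*, which encodes perlecan, had the highest level at 274.8 TPM, followed by the laminin chains *Lamb1* at 81.7 TPM, *Lamc1* at 59.0 TPM and *Lama1* at 27.4 TPM. *Egflam*, the gene of pikachurin, a ligand best known from photoreceptor synapses, had 5.91 ± 1.14 CPM in *FVB/N*, 11.6 ± 1.20 in *P0-3.9GFPCre* and 7.82 ± 1.51 in *Le-Cre*. Its *P0-3.9GFPCre* pools lay above all other pools. The log2 fold change from *FVB/N* was 0.98 ± 0.179 (SE) in *P0-3.9GFPCre* (unadjusted p = 0.000185, adjusted p = 0.390 by edgeR) and 0.41 ± 0.180 in *Le-Cre* (adjusted p = 0.611). The 8 retina markers, of which 7 had a mean under 1 CPM, summed to 2.09 to 5.81 CPM in *FVB/N*, 3.25 to 6.78 in *P0-3.9GFPCre* and 1.95 to 10.96 in *Le-Cre*, and their part in the *Egflam* values was not tested. *Hspg2* was at -0.20 ± 0.077 in *Le-Cre* relative to *FVB/N* (adjusted p = 0.555), and *Lama5*, another laminin chain, at -0.14 ± 0.058 in *P0-3.9GFPCre* (adjusted p = 0.699).

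Laminin-binding integrins, the other class of laminin receptors, showed no unadjusted p under 0.05 for any of 5 genes. *Itgb1* (94.3 TPM) and *Itga6* (75.8 TPM) had a log2FC between -0.08 and 0.02 in all comparisons. *Itga7*, known from muscle, had at most 20 counts in a pool and a log2FC of 1.20 ± 0.757 in *Le-Cre* relative to *FVB/N* (adjusted p = 0.760 by edgeR). The cytoskeletal partners of dystrophin were 5 genes, of which *Des* was too low to test. In *Le-Cre* the pools of all 4 tested genes lay below the *FVB/N* pools, where 13.5% of all tested genes did not overlap in either direction. *Ank3*, which encodes ankyrin-G, had 122.9 ± 8.98 CPM in *FVB/N*, 107.0 ± 12.2 in *P0-3.9GFPCre* and 97.3 ± 4.06 in *Le-Cre*, where its log2FC from *FVB/N* was -0.34 ± 0.087 (adjusted p = 0.306 by edgeR). *Plec* (plectin) was at -0.16 ± 0.067 (adjusted p = 0.591), *Ank2* (ankyrin-B) at -0.12 ± 0.055 (adjusted p = 0.616) and *Sync* (syncoilin), with at most 18.1 counts in a pool, at -0.86 ± 0.513 (adjusted p = 0.747).

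**Figure D5:**
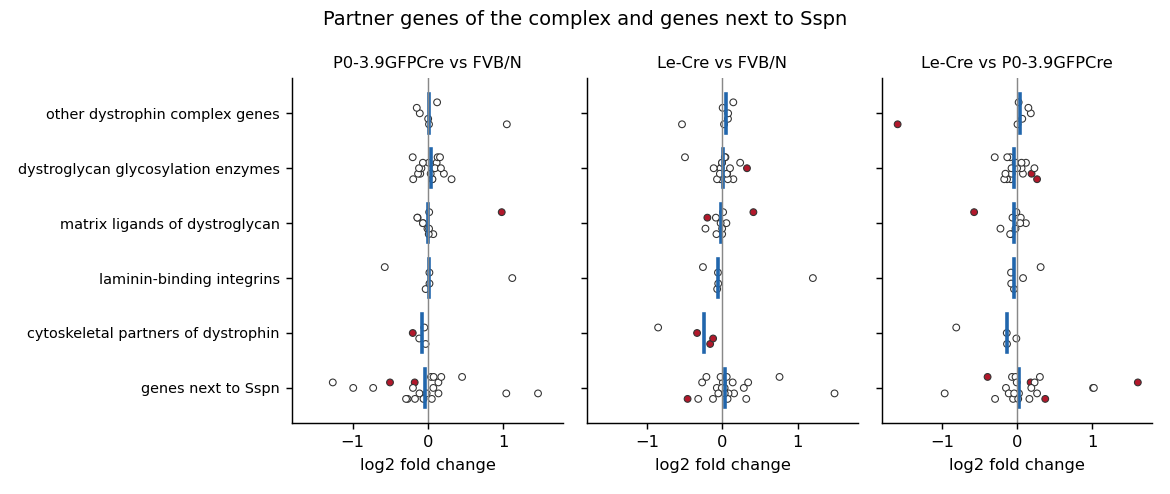
Log2 fold changes of the tested genes of each partner list and of the genes within 1 Mb of *Sspn* in the 3 comparisons, filled where the unadjusted p was under 0.05, with a blue bar at the list's median. The medians lie between -0.25 and 0.05, and 0 genes passed the cutoff.

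Genes near *Sspn* had differences of both signs and did not pass the test. Within 1 Mb on either side lie 48 other genes of the tables, of which 22 were tested. Between *Le-Cre* and *P0-3.9GFPCre*, 12 of the 22 had a positive log2 fold change, and the median was 0.02. *Itpr2*, an inositol trisphosphate receptor gene, had 34.2 ± 4.42 CPM in *FVB/N*, 24.1 ± 3.54 in *P0-3.9GFPCre* and 28.4 ± 3.37 in *Le-Cre*, a log2FC of -0.50 ± 0.130 in *P0-3.9GFPCre* relative to *FVB/N* (adjusted p = 0.590 by edgeR), in which *Sspn* was at 0.33. *Bhlhe41*, a transcriptional repressor of the circadian clock, was at -0.46 ± 0.144 in *Le-Cre* relative to *FVB/N* (adjusted p = 0.433). *Gm15707*, with 4.03 to 29.2 counts per pool, was at 1.61 ± 0.574 between the transgenic lines (adjusted p = 0.531).

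The genes whose profile over the 9 pools was most like that of *Sspn* were found by Pearson's r of log2 CPM among 13040 genes with a mean of at least 1 CPM, as a description only, since the 9 pools are shared by all genes and *Sspn* was chosen for its pattern in them. The 5 highest were *Sgta* (r = 0.956), *Sox5os2* (0.955), *Chchd3* (0.940), *Rwdd4a* (0.940) and *Ppp6r3* (0.938). *Sgta*, a co-chaperone gene, had 69.0 ± 1.35 CPM in *FVB/N*, 74.3 ± 1.43 in *P0-3.9GFPCre* and 64.4 ± 1.90 in *Le-Cre*, a smaller relative difference between lines than that of *Sspn*. *Sox5os2*, named as an antisense RNA of *Sox5* and counted without a stated strand, had 2.35 ± 0.558, 3.56 ± 0.153 and 1.82 ± 0.212 CPM. The 5 lowest were *Bst1* (-0.965), *Ipp* (-0.950), *Sesn3* (-0.949), *Pphln1* (-0.947) and *Tmem72* (-0.945). Of these, *Tmem72* had 158.5 ± 14.4 CPM in *FVB/N*, 137.9 ± 9.98 in *P0-3.9GFPCre* and 183.9 ± 5.41 in *Le-Cre*. By Spearman's rho, 2 of the 5 highest genes were again among the first 5. No other member of the complex was near these values, as r with *Sspn* was 0.451 for *Dag1*, 0.341 for *Sgce*, -0.088 for *Sntb1*, -0.164 for *Sgcb*, -0.260 for *Dmd*, -0.671 for *Dtna* and -0.707 for *Utrn*. *Sgcd* was below the level needed.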

How the data were processed

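RNA-Seq of polyadenylated RNA was performed by the authors on 9 pools, 3 per line. Per the submitters' processing notes and the paper's methods, the authors trimmed single-end reads with Trimmomatic 0.36, aligned them to GRCm38 by GSNAP, and estimated gene abundance by RSEM 1.3.0; the notes also name DESeq2 1.10.1. The tables deposited for each pool hold expected counts, which are not normalized and can be split between genes, and TPM, which RSEM scaled for transcript length and library. They also hold the lengths and credibility intervals used here. The annotation release is not given in the sources used here, and coordinates and transcripts were taken from GENCODE M21, which held 47224 of the 47729 gene identifiers.

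Members and gene lists were chosen with earlier results of these data known. Expected counts were rounded and tested in R 4.3.3 with edgeR 4.0.16 (TMM, filterByExpr, glmQLFit and glmQLFTest, 1 coefficient per line over all 9 pools), with Benjamini-Hochberg adjustment over 15557 genes and a cutoff of 1.5-fold and 0.05. The test was checked on simulated counts. Standard errors were obtained as the size of the log2 fold change over the square root of F, and 95% intervals use the t distribution. An exact permutation test of 3 pools against 3 cannot give a two-sided p below 0.1, so none was used. All members are named, together with up to 3 genes of each list by smallest unadjusted p and the 5 genes most and least like *Sspn*; genes named for their level alone were added after their values were seen, and some items are not reported here. DESeq2 1.42.0 was an alternative. RefSeq promoter windows were searched for the motifs named, on both strands. Groups and replicate numbers came from the sample titles, and for 1 *FVB/N* pool the description gave another number. No pairing by replicate number was seen, and the pools were treated as unpaired. Figures were drawn with matplotlib.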

Additional observations from a re-analysis of the deposited data

Results flagged for a closer look

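The pools of *Sspn* moved in opposite directions in the 2 transgenic lines, a pattern favored by the way the gene was chosen. Every *P0-3.9GFPCre* pool was above the *FVB/N* mean and every *Le-Cre* pool was below it, with mean log2 differences of 0.33 and -0.35. This difference between the lines was not tested, since *Sspn* was chosen on it. Of the 15557 tested genes, 531 (3.41%) had pools on opposite sides of the *FVB/N* mean in this way, and 88 had pools of all 3 lines that did not overlap. These counts do not measure how unusual *Sspn* is, because its choice favored such a pattern.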

How the results depend on the processing

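The count of members called was 0 under every alternative run in all 3 comparisons. *Sspn* kept its direction throughout, with log2 fold changes of 0.28 to 0.38 in *P0-3.9GFPCre* and -0.40 to -0.30 in *Le-Cre* relative to *FVB/N*, and -0.73 to -0.65 between the transgenic lines, when 1 pool was left out. Between the transgenic lines a kept direction was favored by the choice of *Sspn* on that difference. The comparisons with *FVB/N* share those pools, so these ranges are a description only. Over all genes the count of calls moved widely, from 0, 10 and 0 to 93, 131 and 123 without the filter on low counts, to 11, 49 and 35 by DESeq2, and to 0, 13 and 31 with only the compared lines. The 10 calls between *Le-Cre* and *FVB/N* fell to 0 with the Y-linked covariate, without *FVB/N* replicate 2 and without any 1 *Le-Cre* pool, and leaving out *FVB/N* replicate 2 gave 14 and 18 calls in the other comparisons. The count of members whose pools did not overlap between *Le-Cre* and *FVB/N* was 4 by CPM and 2 by TPM. By TPM those members were *Sspn* and *Utrn*, and between the transgenic lines the 1 member was *Dtna* in place of *Utrn*. Ordered by CPM, 4 of the 9 members kept their place.

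Reversed directions were all of values near 0 or of low counts, and their cause was not tested. With the Y-linked covariate, *P0-3.9GFPCre* relative to *FVB/N* gave 0.014 for *Dag1*, -0.13 for *Sgcd* and -0.083 for *Sntb1*, *Le-Cre* relative to *FVB/N* gave 0.026 for *Sgcb* and -0.138 for *Sntb1*, and *Le-Cre* relative to *P0-3.9GFPCre* gave -0.055 for *Sntb1*. Without the filter *Sntb1* was at -0.003 in *P0-3.9GFPCre*. Leaving out 1 pool gave ranges in *P0-3.9GFPCre* relative to *FVB/N* of -0.027 to 0.152 for *Dmd*, -0.125 to 0.072 for *Sgcb*, -0.553 to 0.506 for *Sgcd*, -0.075 to 0.064 for *Sntb1* and -0.058 to 0.126 for *Dtna*. In *Le-Cre* relative to *FVB/N* the ranges were -0.077 to 0.063 for *Sgcb* and -0.051 to 0.050 for *Sntb1*, and between the transgenic lines -0.085 to 0.112 for *Sgcb*, -0.433 to 0.050 for *Sgce* and -0.051 to 0.090 for *Sntb1*.

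In the fit with a replicate block, the members called were 0 in each comparison, *Sntb1* was at -0.003 in *P0-3.9GFPCre*, and calls over all genes were 0, 2 and 0. Residuals of pools with the same number correlated at a mean r of 0.031 (-0.150 to 0.143, 9 pairs). For different numbers the mean r was -0.0155 (-0.214 to 0.157, 18 pairs). The pools were treated as unpaired, although so few pairs cannot exclude a shared origin. *Sgcd* did not pass the filter with only the 2 transgenic lines in the fit. *Sgcd* and *Sgce*, with the lowest counts, have intervals that reach beyond a 1.5-fold change.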
